A study of Homo sapiens with 11 samples.

Results

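Metallothioneins and the zinc exporter SLC30A1 were followed across 11 arrays of MDA-MB-231 cells, an established triple-negative breast cancer line, treated with estradiol, with an estradiol-albumin conjugate, or with antagonists. The genes were chosen by name: MT1E, MT1F, MT1G, MT1H, MT1M, MT1X, MT2A and SLC30A1. They are 8 of the 19775 genes in the analysis and were read by 14 probe sets, each annotated to exactly 1 of these symbols. Each gene's value is the mean of its probe sets.

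Charcoal-stripped serum was used throughout, for a preincubation of 4 h and for the 3 h with or without an agent that followed. There were 2 arrays of untreated control cells and 2 of cells given 1 µM E2-BSA, which is estradiol coupled to bovine serum albumin. A single array stood for each of 0.1% ethanol, 1 µM estradiol, 10 µM ICI, 10 µM G15, either antagonist together with E2-BSA, and 1 µM BSA, the albumin without the steroid. No label ties the duplicates to separate cultures, so p-values do not measure the spread between cultures. The spread that they do measure is given below with the fit. In such bulk RNA, fewer cells of a kind and less RNA per cell cannot be told apart.

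Metallothioneins are small, cysteine-rich proteins that bind zinc and copper, buffer free zinc in the cell and take up cadmium. Their genes, and the gene for the plasma-membrane zinc exporter SLC30A1, are activated when the zinc-finger factor MTF1 senses zinc and binds metal response elements in their promoters. MT2A is also a known target of the glucocorticoid receptor.

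The promoters are shown because MTF1 acts on these genes through metal response elements in their promoters. The RefSeq promoter table (GRCh38.p14) matched 4 of the 8 genes, MT2A, MT1H, MT1X and SLC30A1. For each, the 250 bases before the annotated start are given 5′ to 3′ on the gene's strand. Capitals mark every match on either strand to the core of the metal response element, spelled TGCACNC or TGCGCNC, where N is any base. None of the matches overlapped another.
MT2A, chr16:56608334-56608583, plus strand: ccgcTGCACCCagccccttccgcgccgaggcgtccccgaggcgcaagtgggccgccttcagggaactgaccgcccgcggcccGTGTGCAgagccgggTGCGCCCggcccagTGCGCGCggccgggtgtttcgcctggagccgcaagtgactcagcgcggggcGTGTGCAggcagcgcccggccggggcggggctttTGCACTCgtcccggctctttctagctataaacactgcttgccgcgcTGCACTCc
MT1H, chr16:56669564-56669813, plus strand: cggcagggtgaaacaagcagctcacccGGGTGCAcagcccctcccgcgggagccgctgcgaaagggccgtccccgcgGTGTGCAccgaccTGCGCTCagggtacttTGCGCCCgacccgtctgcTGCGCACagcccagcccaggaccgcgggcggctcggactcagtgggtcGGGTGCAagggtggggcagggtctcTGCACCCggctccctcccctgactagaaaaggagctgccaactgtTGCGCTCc
MT1X, chr16:56682220-56682469, plus strand: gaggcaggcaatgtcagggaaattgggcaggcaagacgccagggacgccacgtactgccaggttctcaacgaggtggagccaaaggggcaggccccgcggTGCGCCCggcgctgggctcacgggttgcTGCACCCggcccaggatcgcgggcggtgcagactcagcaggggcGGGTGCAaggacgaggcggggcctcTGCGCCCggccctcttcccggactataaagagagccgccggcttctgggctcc
SLC30A1, chr1:211579162-211579411, minus strand: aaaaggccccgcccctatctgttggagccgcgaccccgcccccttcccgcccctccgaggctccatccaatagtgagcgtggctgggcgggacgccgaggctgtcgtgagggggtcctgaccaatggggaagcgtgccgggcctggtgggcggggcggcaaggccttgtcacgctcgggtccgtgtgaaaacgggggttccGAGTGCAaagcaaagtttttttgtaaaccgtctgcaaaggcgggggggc

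The MT1H window held 8 matches, the MT2A window 7, the MT1X window 4 and the SLC30A1 window 1. Among the 35116 promoter windows of this length in the table, 24.8% held at least 1 match, 0.37% at least 4, 0.0313% at least 7 and 0.0171% at least 8. The metallothionein windows therefore held more copies of the core than nearly all promoters, and the SLC30A1 window held a number that is common. A match is a run of letters and was not tested for binding. The 7 metallothionein genes lie together on chromosome 16, from MT2A at 56608584 to the end of MT1X at 56684196, and SLC30A1 lies on chromosome 1 at 211571568 to 211579161 (GRCh38.p14).

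The deposited values were on a log scale, taken here as log2, and centred probe set by probe set. They therefore compare arrays within a gene and give no level. For the same reason the labelled cell line could not be checked against its marker genes. The arrays fell into sets by the signal of the 27 probe sets for poly-A RNAs spiked in during labelling. That signal was 1.28 to 1.45 in 3 arrays, the first control, the first E2-BSA and the estradiol array, and -0.51 to 0.09 in the other 8. The duplicates of control and of E2-BSA lay on opposite sides of this gap. Comparisons of single arrays were therefore made inside a set, against the first or the second control. A joint limma fit over all 11 arrays carried a term for the set beside the treatments, with 3 residual degrees of freedom. It took E2-BSA to act equally in both sets and with or without an antagonist. The set term took up the mean gap between duplicates. The BSA, ethanol and estradiol arrays were each fitted by their own term. A gene's residual spread was therefore only how far its E2-BSA difference varied between pairs of arrays alike but for E2-BSA. The p-values were adjusted by Benjamini-Hochberg over all 19775 genes with a threshold of 0.05.

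**Figure D1:**
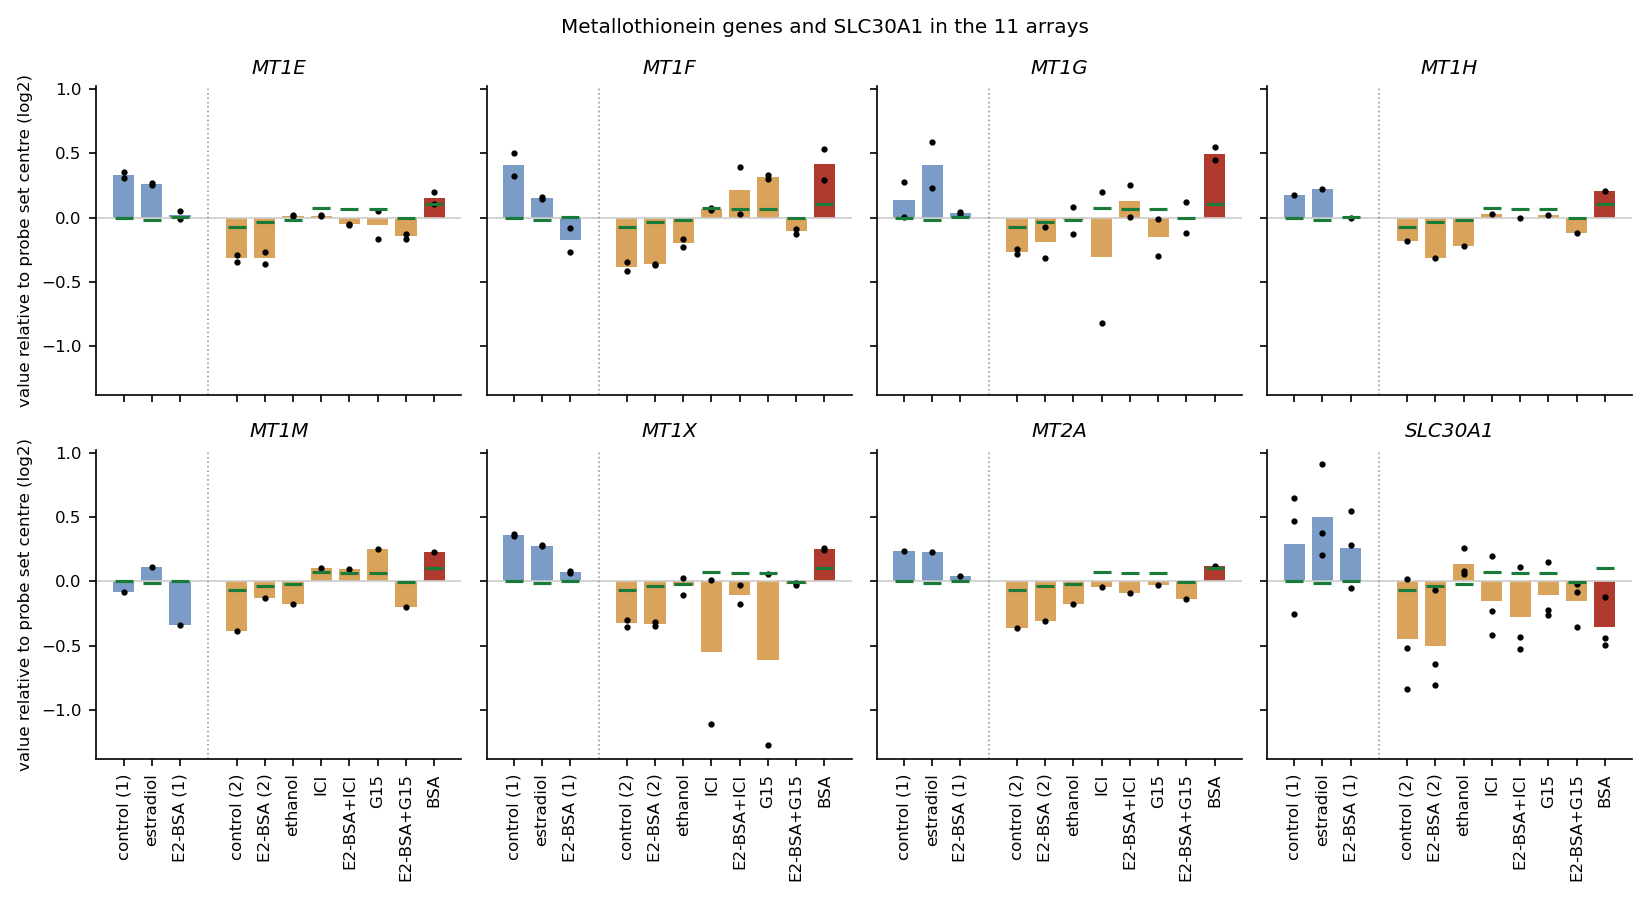
Values (log2, relative to each probe set's centre) of the 8 genes in the 11 arrays; bars are genes, black points their probe sets and green dashes the median of all genes in that array. The dotted line separates the 3 arrays of high spike-in signal (blue) from the other 8, where the BSA array (red) was the highest for 6 of the 7 metallothioneins and sixth for SLC30A1.

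The BSA array held the highest metallothionein values outside the high spike-in set. The mean of the 7 metallothioneins was 0.27 in BSA, against 0.03 in E2-BSA with ICI, -0.04 in G15, -0.10 in ICI, -0.10 in E2-BSA with G15, -0.12 in ethanol, -0.28 in the second E2-BSA and -0.32 in the second control array. Only 1 array stands at each place in this order, so whether neighbours differ beyond replicate spread cannot be measured. The ICI and G15 means include 204326_x_at of MT1X, at -1.11 and -1.27, and 204745_x_at of MT1G, at -0.82 and -0.30. Both lay below their gene's other probe set there, so the places of ICI and G15 rest partly on them. The median of all genes was also highest in the BSA array of these 8, at 0.10, and lowest in the second control, at -0.07. BSA was the top array for MT1E, MT1F, MT1G, MT1H, MT1X and MT2A, and G15 for MT1M.

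MT2A, the most widely expressed human metallothionein, measured 0.12 in BSA. In the other arrays of that set it measured -0.37 in the second control, -0.30 in the second E2-BSA, -0.18 in ethanol, -0.04 in ICI, -0.03 in G15, -0.09 with both E2-BSA and ICI and -0.14 with both E2-BSA and G15. BSA was the only array of the 8 with a positive value of MT2A. MT1E had the same outline, with 0.16 in BSA and -0.31 to 0.02 in the other 7 arrays, and MT1H had 0.20 in BSA and -0.31 to 0.03 elsewhere.

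MT1G, an isoform whose gene is often methylated in tumours, measured 0.50 in BSA. Its values were -0.26 in the second control, -0.19 in the second E2-BSA, -0.02 in ethanol, -0.31 in ICI, -0.15 in G15, 0.13 in E2-BSA with ICI and 0.00 in E2-BSA with G15, all below BSA. MT1F, another zinc-binding isoform, measured 0.42 in BSA, and -0.38, -0.36, -0.20, 0.06, 0.32, 0.21 and -0.11 in those arrays in the same order. For MT1F the ICI, G15 and E2-BSA with ICI arrays also stood above 0, with BSA the highest. MT1M measured 0.23 in BSA and 0.25 in G15, with -0.39 in the second control as its lowest value.

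Against the second control, the 7 metallothioneins were higher in BSA by 0.38 to 0.80, with a median of 0.58, while the median gene was higher by 0.19. All 7 lay above the median gene, by a median of 0.38. Of the 8 genes, 2 lay more than 0.5 above it, where 1.54% of all genes did: MT1F, with a difference of 0.80, and MT1G, with 0.76. These 2 stood above 99.3% and 99.1% of all genes, and MT1M, at 0.62, above 97.1%. MT1H, at 0.38, stood above 82.5%, inside the range of ordinary genes. The second control was also the lowest of the 8 arrays for 3 of the 7 metallothioneins. Against the second E2-BSA array the metallothionein median was 0.52 where the median gene was 0.17, and against ethanol it was 0.41 where the median gene was 0.15.

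**Figure D2:**
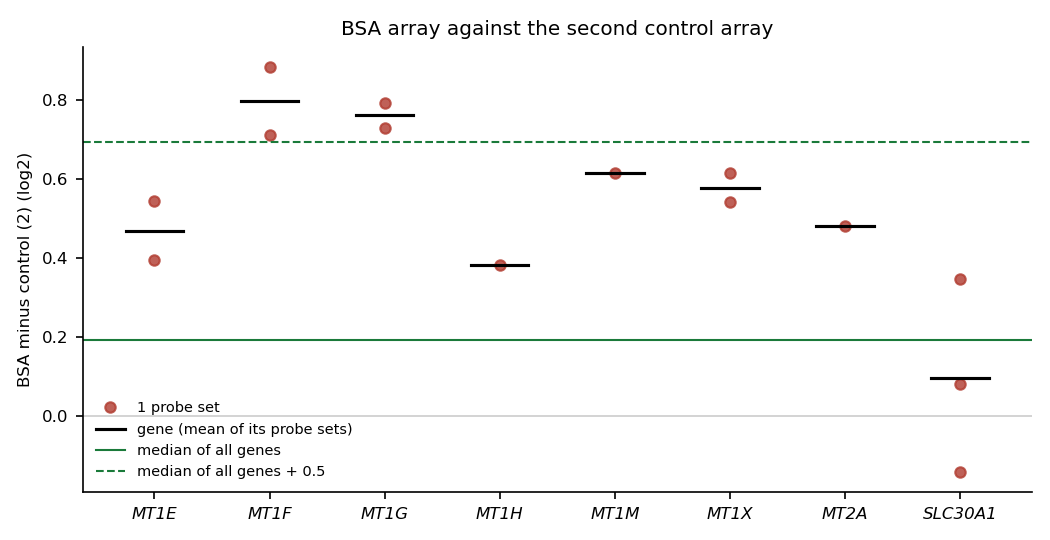
Difference between the BSA array and the second control array (log2) for each probe set of the 8 genes (points) and for the gene (black bars). The solid green line is the median of all genes, 0.19, and the dashed line lies 0.5 above it; every metallothionein probe set lies above the solid line, and the 3 SLC30A1 probe sets lie on both sides of it.

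No probe set of a metallothionein went against its gene in this comparison. The 11 of them were higher in BSA by 0.38 to 0.88, and the probe sets of MT1F read 0.71 and 0.88, those of MT1G 0.73 and 0.79, those of MT1X 0.54 and 0.61, and those of MT1E 0.40 and 0.54. The paralogues are nearly identical in sequence and 9 of the 11 probe sets end in _x_at, which marks probes that can bind several transcripts. The 11 readings are therefore not independent, and how the signal divides among the MT1 genes is uncertain. The pair without that ending, 210472_at for MT1G and 217546_at for MT1M, read 0.79 and 0.62.

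In the limma fit, BSA against control was estimated at 0.80 ± 0.18 (SE) for MT1G, a 1.74-fold difference with adjusted p = 0.188. It was 0.68 ± 0.23 for MT1F, 0.67 ± 0.26 for MT1X, 0.43 ± 0.21 for MT1M, 0.42 ± 0.14 for MT2A, 0.41 ± 0.14 for MT1E and 0.39 ± 0.13 for MT1H, against a median of 0.17 over all genes. None of the 8 genes passed the limma test, where 0.354% of all genes did, and their adjusted p ran from 0.188 to 0.720. At an unadjusted p under 0.05 there were 6 of the 8, every metallothionein but MT1M, where 16.1% of all genes were. All 7 metallothioneins had positive estimates, and the BSA term rests on 1 array. Fitted singly, the MT1X probe sets had 0.85 for 204326_x_at and 0.50 for 208581_x_at. Without the set term the estimates were 0.40 for MT1F, 0.23 for MT1X, 0.21 for MT1H, 0.18 for MT2A and 0.15 for MT1E, and with arrays centred on their median gene 0.24 to 0.65 over the 7. MT1M had 0.12 without the second control.

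Set against BSA, its carrier, E2-BSA gave lower estimates for all 7 metallothioneins. The fit put E2-BSA below BSA by -0.89 ± 0.23 for MT1F, -0.66 ± 0.18 for MT1G and -0.49 ± 0.14 for MT2A, with a median of -0.53 over the 7 and of -0.19 over all genes. None of the 8 passed the limma test (adjusted p 0.203 to 0.508), where 0.308% of all genes did, and 6 had an unadjusted p under 0.05, where 17.8% of all genes did. This comparison and BSA against control share the single BSA array, so their values are not separate evidence. Without the set term the MT2A estimate was -0.25.

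SLC30A1, which moves zinc out across the plasma membrane, did not share the place of the metallothioneins in BSA. It measured -0.35 in BSA, sixth of the 8 arrays, and 0.13 in ethanol, -0.11 in G15, -0.15 in ICI, -0.15 in E2-BSA with G15, -0.28 in E2-BSA with ICI, -0.45 in the second control and -0.51 in the second E2-BSA. Ethanol was the only array of the 8 above 0. BSA minus the second control was 0.10, which is 0.10 below the median gene. That value averaged 0.35 for 212907_at, 0.08 for 228181_at and -0.14 for 242716_at, so 212907_at alone lay above the median gene. The fitted BSA difference was 0.09 ± 0.13, with a 95% interval from -0.20 to 0.39 and a limma adjusted p of 0.720, and its sign turned when arrays were centred on their median gene, to -0.06.

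E2-BSA against control gave small estimates. The first E2-BSA array was the lowest of the 3 high spike-in arrays for all 7 metallothioneins. MT1F measured 0.41 in the first control, 0.15 in estradiol and -0.17 in E2-BSA, and MT1E measured 0.33, 0.26 and 0.02. MT2A measured 0.23 in both the first control and estradiol and 0.04 in E2-BSA. The 7 differences from the first control ran from -0.59 to -0.10 with a median of -0.26, where the median gene stood at 0.00. Only MT1F lay more than 0.5 from the median gene, 1 of the 8 genes where 7.0% of all genes did.

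In the second pair the lower values were repeated by MT1H, at -0.18 in the first pair and -0.14 in the second, while most metallothioneins lay near 0 or above. The second E2-BSA array differed from the second control by -0.14 to 0.26 over the metallothioneins, with a median of 0.02, and none of the 8 genes lay more than 0.5 from the median gene, where 0.602% of all genes did. MT1F, the gene furthest down in the first pair, measured -0.36 in the second E2-BSA and -0.38 in the second control. MT1M went the opposite way in the pairs, by -0.26 in the first and 0.26 in the second. SLC30A1 differed by -0.03 in the first pair and by -0.06 in the second.

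Over all arrays, limma estimated E2-BSA against control at -0.21 ± 0.13 for MT1F, with a 95% interval from -0.51 to 0.09, and at -0.07 ± 0.08 for MT2A, with an interval from -0.24 to 0.11. The 7 metallothionein estimates ran from -0.21 to 0.19, the last that of MT1X. Fitted singly, the MT1X probe sets had 0.47 for 204326_x_at and -0.10 for 208581_x_at. None of the 8 genes passed the limma test, where 0.0% of all genes did, and none had an unadjusted p under 0.05. The MT1F estimate was -0.086 without the first control or without the first E2-BSA array. The interval of SLC30A1 ran from -0.23 to 0.10.

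With free estradiol the metallothioneins lay near the first control. Estradiol minus the first control was -0.26 for MT1F and 0.27 for MT1G, the lowest and highest of the 7, and the median was -0.01. The MT1G value averaged 0.58 for 210472_at and -0.04 for 204745_x_at. SLC30A1 measured 0.50 in estradiol, 0.29 in the first control and 0.26 in E2-BSA. Its probe sets differed between estradiol and the first control by 0.27 for 212907_at, -0.09 for 228181_at and 0.47 for 242716_at. In this pair none of the 8 differed by more than 0.5 from the median gene, where 4.93% of all genes did. In the limma fit MT1G had 0.39 ± 0.18 and SLC30A1 0.20 ± 0.13. MT1G had 0.59 without the first control, and SLC30A1 0.58 without the set term. None of the 8 passed (adjusted p 0.736 to 0.999), where 0.0% of all genes did, and none had an unadjusted p under 0.05.

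The 2 antagonist treatments gave most metallothioneins higher values than the second control, in arrays where the median gene was higher as well. ICI minus the second control had a metallothionein median of 0.32 where the median gene stood at 0.16, and G15 a median of 0.26 where it stood at 0.16. MT1F was higher by 0.44 in ICI and 0.70 in G15, and MT1M by 0.49 and 0.63. Of the 8 genes none was more than 0.5 from the median gene in ICI, where 2.62% of all genes were, and 1, MT1F, in G15, where 2.8% were. These differences, and those of BSA and ethanol, all use the second control array.

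**Figure D3:**
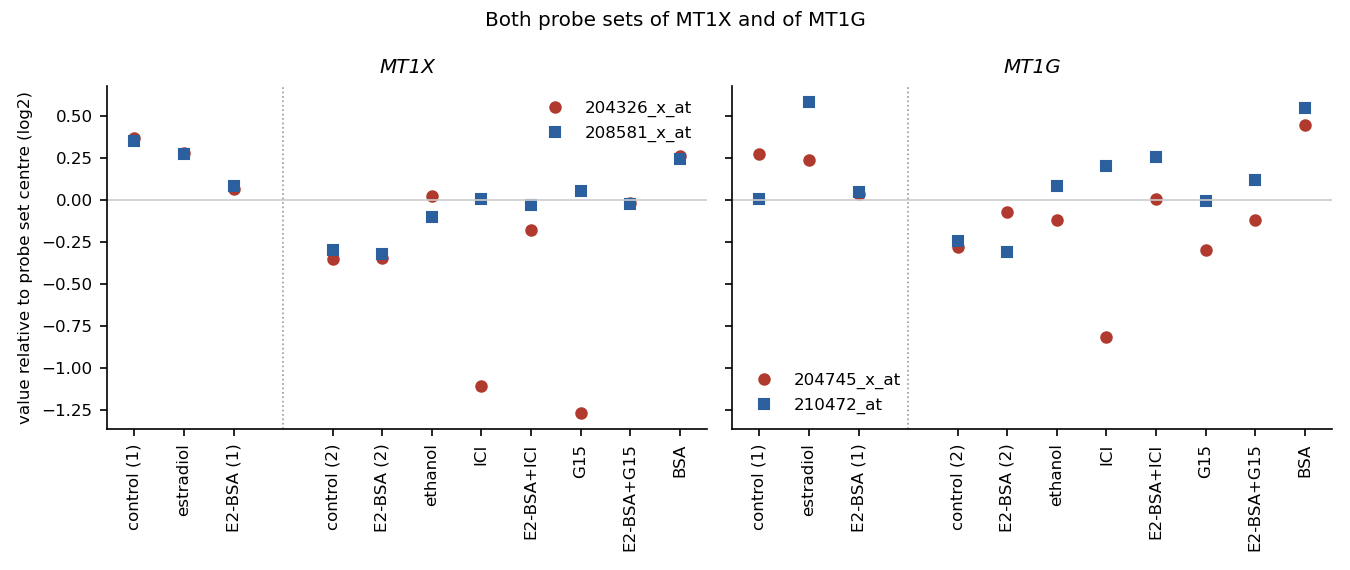
Values (log2, relative to the probe set's centre) of both probe sets of MT1X and of MT1G in the 11 arrays; the dotted line separates the 3 arrays of high spike-in signal. The probe set 204326_x_at read -1.11 in ICI and -1.27 in G15 where 208581_x_at read 0.01 and 0.05, and 204745_x_at read -0.82 in ICI where 210472_at read 0.20.

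MT1X and MT1G stood apart in the antagonist arrays through single probe sets. MT1X, an isoform found in most tissues, averaged -0.55 in ICI and -0.61 in G15. Its probe set 204326_x_at measured -1.11 and -1.27 there, while 208581_x_at measured 0.01 and 0.05. In every other array 204326_x_at lay between -0.15 and 0.13 of its partner, the arrays with an antagonist and E2-BSA included. The annotation gives 204326_x_at as MT1X, but the accession it lists belongs to MT1L in the current gene table. Of 10030 probe sets of genes read by 2 probe sets, 0.389% lay further below their partner in ICI than 204326_x_at did, and 0.449% in G15.

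For MT1G the probe set 204745_x_at measured -0.82 in ICI and -0.30 in G15, while 210472_at measured 0.20 and -0.01. In ICI 0.558% of the 10030 probe sets lay further below their partner than 204745_x_at, but in G15 16.4% did. So the gap was rare in ICI and common in G15. With 204326_x_at left out, an alternative chosen after seeing the data, MT1X is read by 208581_x_at alone and in ICI stood at 0.01, among the other metallothioneins.

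The limma fit estimated ICI present against absent, over ICI alone and with E2-BSA, at 0.51 ± 0.18 for MT1F, 0.27 ± 0.11 for MT2A and 0.26 ± 0.10 for SLC30A1, against a median of 0.14 over all genes. In limma no member of the 8 passed (adjusted p 0.280 to 0.995), where 0.0% of all genes did. At an unadjusted p under 0.05 there were 5, where 16.3% of all genes were. For G15 the estimates were 0.48 ± 0.18 for MT1F and 0.34 ± 0.10 for SLC30A1, with a median of 0.10 over all genes. Again none of the 8 passed (adjusted p 0.482 to 0.982), where 0.0% of all genes did, and 3 had an unadjusted p under 0.05, where 10.3% of all genes did. Without the set term the SLC30A1 estimates changed sign, to -0.11 for ICI and -0.03 for G15, and those of MT1F were 0.27 and 0.23.

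With an antagonist present, adding E2-BSA moved the metallothionein median little. E2-BSA with ICI minus ICI had a median of -0.01 and a range from -0.07 to 0.45, and none of the 8 genes was more than 0.5 from the median gene, where 1.35% of all genes were. E2-BSA with G15 minus G15 had a median of -0.10 and a range from -0.44 to 0.59. In that comparison 1 gene, MT1X, was past 0.5, where 6.81% of all genes were, and it is the gene whose probe sets disagreed in the G15 array. SLC30A1 differed by -0.13 with ICI and by -0.04 with G15.

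Ethanol, the solvent control, had the highest SLC30A1 value of its set. SLC30A1 was higher in ethanol than in the second control by 0.58, and it was the only 1 of the 8 genes more than 0.5 from the median gene, where 3.39% of all genes were. Its probe set 212907_at measured 0.26 in ethanol and -0.84 in the second control, 228181_at 0.08 and -0.52, and 242716_at 0.06 and 0.02. So the probe sets 212907_at and 228181_at carried the difference and 242716_at did not. The metallothioneins were higher than the second control by -0.04 to 0.33, with a median of 0.21. The ethanol array also had the highest signal of the hybridisation control probe sets, 0.77 against -0.28 to 0.21 in the other 10 arrays, and its part in the result was not tested.

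In the limma fit SLC30A1 had 0.58 ± 0.13 in ethanol, a 1.49-fold difference, with a 95% interval from 0.28 to 0.87 and adjusted p = 0.357, and 0.21 without the set term. In this comparison none of the 8 genes passed, where 0.086% of all genes did, and SLC30A1 alone had an unadjusted p under 0.05, where 6.35% of all genes did. The metallothionein estimates ran from -0.04 for MT1H to 0.38 for MT1X, whose probe sets fitted singly had 0.61 for 204326_x_at and 0.15 for 208581_x_at.

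**Figure D4:**
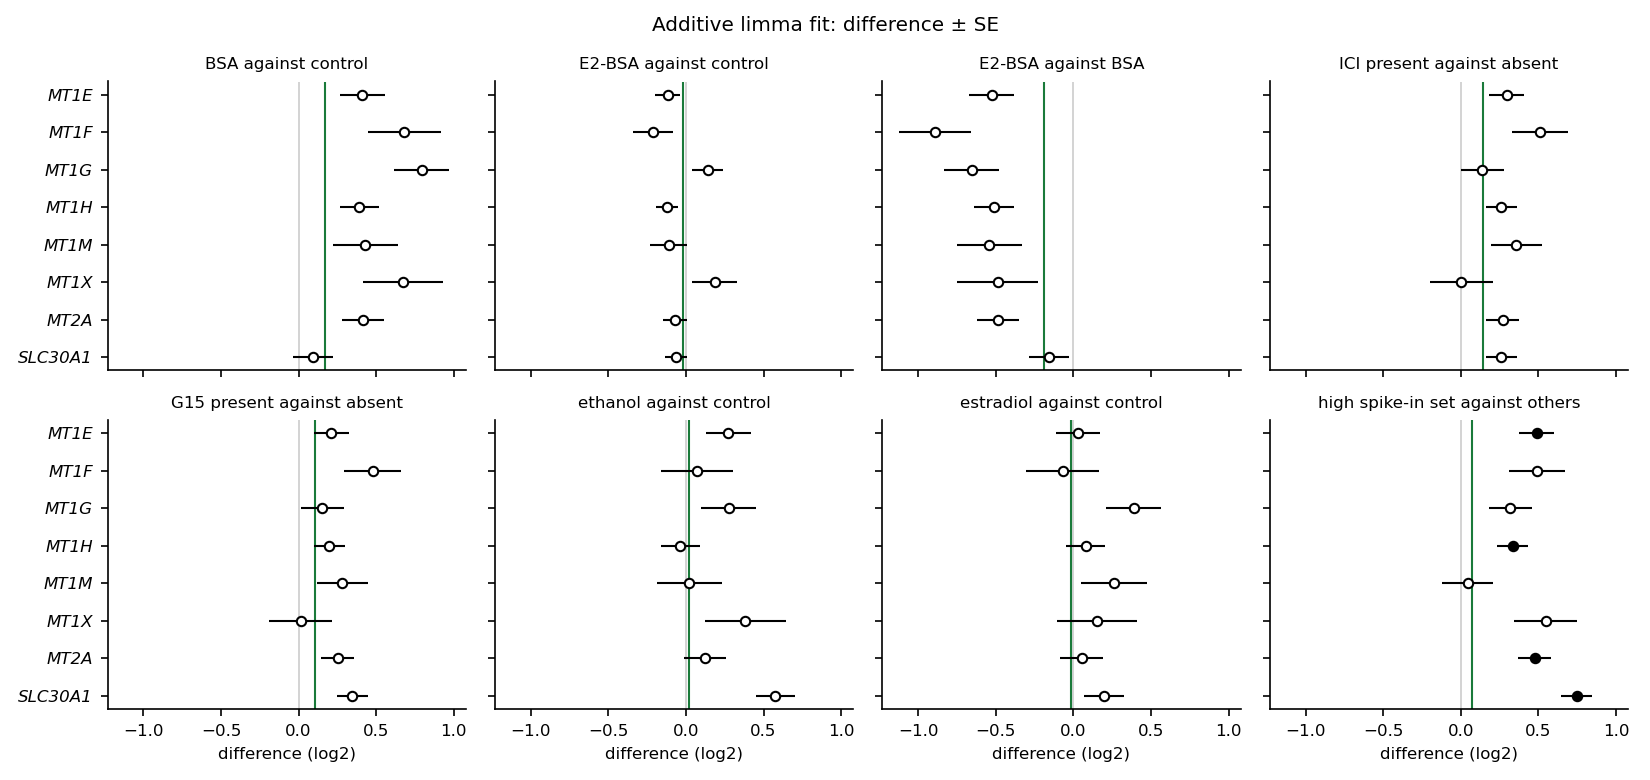
Estimated differences (log2, points) with their standard errors (bars) for the 8 genes in the 8 comparisons of the limma fit; filled points passed an adjusted p of 0.05 and green lines mark the median of all genes. The treatment panels hold open points only, and the set panel holds 4 filled ones: MT1E, MT1H, MT2A and SLC30A1.

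The differences that passed the test lay between the sets of arrays. With treatments held equal, the high spike-in set was higher than the other arrays for 4 of the 8 genes in the limma fit, where 14.1% of all genes were. SLC30A1 was higher by 0.75 ± 0.10 (adjusted p = 0.00177), MT1E by 0.49 ± 0.11 (adjusted p = 0.0177), MT2A by 0.48 ± 0.11 (adjusted p = 0.0157) and MT1H by 0.33 ± 0.10 (adjusted p = 0.0445), against a median of 0.07 over all genes. MT1F (0.49 ± 0.18) and MT1X (0.55 ± 0.20) both had an adjusted p of 0.0904 in limma, and ranged from 0.24 to 0.74 and from 0.23 to 0.86, lowest without the first control and highest without the first E2-BSA array. MT1M, at 0.05 ± 0.16, showed no set difference that passed.

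The same contrast can be read in the duplicates. SLC30A1 measured 0.29 in the first control and -0.45 in the second, and 0.26 in the first E2-BSA and -0.51 in the second. The metallothioneins differed between the controls by 0.30 to 0.79, more than the median of 0.58 by which BSA exceeded the second control in 4 of the 7 genes. Between the E2-BSA duplicates they differed by -0.21 to 0.41. The set difference in SLC30A1 came from 212907_at, with 0.64 and -0.84 in the controls, and 228181_at, with 0.47 and -0.52, while 242716_at read -0.26 and 0.02. Whether labelling, culture or another step parts the sets was not tested.

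The calls between sets did not all survive a left-out array. SLC30A1 passed in each of the 4 fits that left out a control or an E2-BSA array. MT1E and MT2A no longer passed without the first control (adjusted p 0.0996 and 0.0907), without the second control (0.172 and 0.164) or without the second E2-BSA (0.0884 and 0.0727) in limma. MT1H lost the call in all 4 of these fits, and also with arrays centred on their median gene (adjusted p = 0.0756), with quantile normalization (0.0746) and with no trend in limma's prior variance (0.0506). MT1F and MT1X passed without the first E2-BSA array, with limma adjusted p of 0.0413 and 0.0278. MT1X also passed when 208581_x_at alone read it (0.53, limma adjusted p = 0.0115), an alternative added after seeing the data.

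Within the 8 arrays outside the high spike-in set, the metallothioneins varied together in part. Pearson r between pairs of them, each array first reduced by its median gene, ran from -0.31 to 0.87 over the 21 pairs with a median of 0.54. With the BSA array left out the median was 0.26. These pairs share arrays, and many share probes that can bind several paralogues. MT1X and MT1G each have a probe set that read low in ICI, and had r = 0.86 with each other. MT1X had 0.36 with MT1E, 0.20 with MT2A, 0.09 with MT1H, -0.02 with MT1F and -0.31 with MT1M. The part of shared arrays, shared probes and those probe sets in these values, and in the metallothionein mean, was not tested. SLC30A1 had a median r of -0.09 with the 7 metallothioneins.

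The gene most like the metallothionein mean over these 8 arrays was PTPN7, a phosphatase that acts on MAP kinases, with r = 0.97, and 0.88 without the BSA and second control arrays. It was followed by the death receptor TNFRSF10B (0.92, then 0.64), TNFAIP2 (0.89, then 0.68), the zinc-finger gene ZNF577 (0.88, then 0.68) and the transcription factor IRF1 (0.87, then 0.28), of 1311 genes ranked. IRF1 was thus like them chiefly through the arrays at the ends. Most like SLC30A1, of 1313 genes ranked, were TENT5C (0.91), the immediate-early factor EGR1 (0.89), the glycogen-targeting phosphatase subunit PPP1R3C (0.89), the adenylosuccinate synthase ADSS1 (0.89) and CHMP1B (0.89). Without the ethanol and second E2-BSA arrays these were 0.92, 0.88, 0.84, 0.93 and 0.74.

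Other genes of zinc handling did not pass the limma test in any treatment comparison. MTF1, the metal-sensing factor itself, measured 0.14 in BSA and -0.12 in the second control, and its fitted BSA difference was 0.20 ± 0.16 where the median gene had 0.17. Of 10 other metallothionein genes listed, 3 were measured. MT1HL1, read by a probe set ending in _x_at, had 0.50 ± 0.15 for BSA against control and was higher in the high spike-in set by 0.48 (limma adjusted p = 0.0237). MT3, the brain form, had 0.59 ± 0.16 with ICI and MT4, the form of squamous epithelium, 0.67 ± 0.18 with ICI, both with a limma adjusted p of 0.279. For BSA against control MT3 had 0.37 ± 0.21 and MT4 0.56 ± 0.23, where the median of the 7 metallothionein members was 0.43.

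Of the 9 other exporters of the SLC30 family, none passed in a treatment comparison and 6 had a positive BSA difference, with a median of 0.25. Of the 14 importers of the SLC39 family, which bring zinc into the cytosol, 12 had a positive BSA difference, with a median of 0.24, and none passed. Both medians lay close to the 0.17 of all genes, and the metallothionein median was 0.43. Single transporters lay above that value as well. The importers ran from -0.18 for SLC39A3 to 0.65 for SLC39A5, and the exporters from -0.17 for SLC30A10 to 0.52 for SLC30A3. Between the sets, 3 exporters were higher and 1 lower, and 4 importers were higher and 2 lower, where 14.1% of all genes were higher and 10.0% lower. SLC39A6 was the furthest apart of these, at 1.20 ± 0.13 with a limma adjusted p of 9.5e-04, and SLC30A5, which loads zinc into the secretory pathway, followed with 1.01 ± 0.10 (adjusted p = 6.8e-04).

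In lists of genes that share inducers or metals with the metallothioneins, a single gene passed for a treatment. Of 9 copper-handling genes 1 passed for BSA in limma, where 0.354% of all genes did. This was SLC31A2, a copper transporter homologue, higher by 0.92 ± 0.13 (adjusted p = 0.0405), and it was also higher in the high spike-in set by 1.51 ± 0.10. Its BSA call was lost without any 1 of the control or E2-BSA arrays, with limma adjusted p of 0.0576 (first control), 0.630 (second control), 0.0626 (first E2-BSA) and 0.352 (second E2-BSA), and with arrays centred on their median gene (0.0675), in the 8 arrays outside the high spike-in set (0.128) and with single probe sets (0.0774). Without the set term the estimate was 0.19 (limma adjusted p = 0.973). Among the other copper genes, ATP7A and ATP7B were higher in the high spike-in set, and ATOX1 and SCO2 were lower. Of all genes 14.1% were higher in that set and 10.0% lower. Of 7 measured glucocorticoid targets none passed for a treatment, and 4 were higher in the high spike-in set: TSC22D3, KLF9, SGK1 and CRISPLD2. Of 5 measured heme oxygenase and glutathione genes, which cadmium is known to induce, none passed for a treatment, and their BSA median of 0.11 lay below that of all genes. Of these 5, GCLM, GCLC and SLC7A11 were higher in the high spike-in set, where 14.1% of all genes were.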

How the data were processed

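The series holds 11 Affymetrix HG-U133 Plus 2.0 arrays in 9 groups. The values the authors deposited were on a log scale, taken here as log2, and were centred per probe set; per the file headers no more is known, and the summarisation, normalization and log base are not given in the sources used here. Of 54675 probe sets, 41091 carried 1 gene symbol in the platform annotation, 1801 several, 11721 none and 62 were controls; only the first kind was used, with no filter on low values. Values were averaged per gene and fitted across 19775 genes with limma 3.58.1 in R 4.3.3 (lmFit, eBayes with trend; terms for E2-BSA, ICI, G15, estradiol, ethanol, BSA and spike-in set; Benjamini-Hochberg). The script was tested on simulated data. ICI and G15 terms pool the arrays with and without E2-BSA. Differences of single arrays have no test; 0.5 above or below the median gene served as a limit. The array number and the signal in each limit the precision.

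Members and gene lists were chosen with earlier results of these data known. Named genes are the 8 members, list genes past the threshold in any comparison, and the 5 genes with the highest Pearson r with the metallothionein mean or SLC30A1, among genes with at least 2 probe sets and an SD of at least 0.2. MTF1, MT3, MT4, SLC39A3, SLC39A5 and SLC30A10 were added after their values were seen.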

Additional observations from a re-analysis of the deposited data

Results flagged for a closer look

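MT1X, averaged over its probe sets, was flagged because the difference with E2-BSA had opposite signs with and without an antagonist. E2-BSA minus its partner was -0.29 in the first pair and -0.01 in the second, but 0.45 with ICI and 0.59 with G15, so the mean with an antagonist exceeded that without by 0.665. The probe set 204326_x_at, whose accession is now MT1L, read -0.31, 0.01, 0.93 and 1.25 in the same order. Its values with an antagonist made those of the gene positive, but its second pair was also positive, if barely. Neither probe set alone therefore had opposite signs with and without an antagonist. The other, 208581_x_at, read -0.27, -0.02, -0.04 and -0.08 in the same order, all 1 sign, and its value for the same excess was 0.087. The difference was not tested, and 12.9% of all genes were opposed in the same way, against 12.5% of the 8 genes here.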

How the results depend on the processing

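In each treatment comparison none of the 8 genes passed under any alternative. Between the spike-in sets, 4 genes passed in the reported fit, 1 without probe sets ending in _x_at or _s_at, which removes most metallothionein probe sets, and 1 to 5 when 1 of the 4 duplicate arrays was omitted. The sign turned for values that had not passed. SLC30A1 went to -0.27 without the set term and -0.058 with arrays centred on their median gene for BSA against control, to 0.23 and 0.0024 for E2-BSA against BSA, and, without the set term, to -0.11 for ICI and -0.029 for G15. MT1M between the sets went to -0.0079 with that centring, and ranged from -0.20 to 0.29 with 1 duplicate omitted; without the first control it was -0.05. The causes were not tested. The excess of the median member over the median gene for BSA against the second control, 0.34, was 0.20 against ethanol and 0.43 without probe sets ending in _x_at or _s_at, the lowest and highest alternatives.

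The labels do not say that the numbers pair samples of control and E2-BSA, but both arrays numbered 1 lie in the high spike-in set and both numbered 2 in the other. With the number as a replicate block in their 4 arrays none of the 8 genes was called (0), and 0 without the block; same-numbered deviations had r = 0.81 across genes. Most groups have 1 array, and values near background cannot be told from detected ones.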
